A study of Prunus persica with 8 samples.

Results

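Brassinosteroids are steroid hormones that promote cell elongation and shoot growth, and plants lower their level by turning them into inactive forms. In Arabidopsis, BAS1 is a cytochrome P450 that hydroxylates active brassinosteroids, and UGT73C5 is a glucosyltransferase that attaches glucose to them. Both steps remove active hormone. The 3 peach genes that the study matched to these enzymes were examined here among 26873 genes: Prupe.1G291100 and Prupe.1G291800, both with BAS1 as nearest Arabidopsis match, and Prupe.7G124200, matched to UGT73C5. The names rest on those matches alone, and the activity of the peach enzymes was not measured. All 3 genes were taken from the study's list of genes that differed between pillar and standard trees, a list made on the same libraries, so their difference between the growth habits is described without a test.

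RNA-seq was performed on lateral branch tips of 4 pillar trees (numbered 4, 7, 8 and 10) and 4 standard trees (numbered 7, 8, 9 and 10), with 1 library per tree and several tips in each library. All were mature, untreated, field-grown trees from the self-pollination of 1 tree heterozygous for the pillar trait, in whose pedigree stand a pillar tree and the variety Weeping White. Pillar trees have upright branches and carry a mutated TAC1, a gene that controls branch angle, and standard trees have spreading branches. The population segregates for other parts of the genome too. The labels name no harvest batch, so whether harvest differed between the growth habits is not known.

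The depth was similar in all trees, between 18429259 and 23994336 reads on genes. TAC1 (Prupe.2G194000) matched the labels, ranging from 0.802 to 1.27 TPM in pillar but from 17.2 to 28.2 TPM in standard trees, with a log2 difference of -3.99 (limma, standard error 0.19, adjusted p = 4.31e-05). TPM is a level per gene length, scaled to the same sum in every tree. Pillar tree 4 stood apart, with the highest level of the 8 trees for 31.8% of the 20055 tested genes, against 6.21% to 14.01% for each of the other trees. By the column names, lane 8 held the libraries of pillar trees 4 and 7 and lane 6 held the rest.

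Of the BAS1 genes, Prupe.1G291800 was on or off by tree. This gene lies on Pp01 from 28979938 to 28982271, on the forward strand of peach genome version 2. Levels of 8.12, 0, 0 and 0 TPM were found in pillar trees 4, 7, 8 and 10. The levels in standard trees 7, 8, 9 and 10 were 7.60, 5.07, 10.1 and 11.7 TPM. Pillar trees 7, 8 and 10 held no read of the gene, whereas pillar tree 4 lay inside the range of the standard trees, so the groups overlapped through that tree alone.

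The gene had 159 reads in pillar tree 4 and 104 to 257 reads in the standard trees. With a fixed limit of 3 reads, a count of 0 reads allows up to 0.167, 0.141 and 0.135 TPM in pillar trees 7, 8 and 10. These levels are well below the 5.07 TPM of the lowest of the other 5 trees. The exact 95% Poisson limit used further below is somewhat wider, at 3.69 reads. These limits and the intervals below cover counting error only. Of the lane 8 libraries, pillar tree 7 had no read and pillar tree 4 had 159.

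The group means of Prupe.1G291800 were 2.03 ± 4.06 TPM (pillar) and 8.63 ± 2.92 TPM (standard), each with its SD over n = 4 trees. The pillar mean therefore describes none of the pillar trees. The difference of the group means of log2(TPM + 0.5), a scale that understates changes at low TPM, was -3.10. It was -4.13 without pillar tree 4. Within lane 6 it was necessarily the same, because both settings set the same standard trees against pillar trees that are all at 0 TPM.

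Prupe.1G291100, the other BAS1 gene, was expressed at a low level in every tree and was lower in all 4 pillar trees. It lies on Pp01 from 28958106 to 28960465, on the same strand, and its mean level over the 8 trees, 1.14 TPM, was above that of only 6.24% of the tested genes. It had 0.859, 0.275, 0.0933 and 0.178 TPM in pillar trees 4, 7, 8 and 10. Levels of 0.945, 1.01, 3.28 and 2.44 TPM were measured in standard trees 7, 8, 9 and 10. Pillar tree 4 was again the highest of the pillar trees and came close to standard trees 7 and 8, and standard trees 9 and 10 stood above all others.

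The group means of Prupe.1G291100 were 0.351 ± 0.346 TPM (pillar) and 1.92 ± 1.14 TPM (standard), each with its SD over n = 4 trees, which makes the standard mean 5.47 times the pillar mean. The log2 difference was -1.46, and -1.81 within lane 6. Few reads stood behind the pillar values, namely 17, 5, 2 and 4 in pillar trees 4, 7, 8 and 10, with a mean of 7.0 against 41.25 in the standard trees. The study's own minimum was 5 mean reads per growth habit. The edge between the groups was narrower than the counting error, because the 17 reads of pillar tree 4 have an exact 95% Poisson interval of 9.90 to 27.2 and the 20 reads of standard tree 7 one of 12.2 to 30.9.

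Prupe.7G124200, the UGT73C5 match, differed the other way and was higher in all 4 pillar trees. It lies on Pp07 from 14645449 to 14647072, on the reverse strand. Levels of 10.3, 7.83, 10.4 and 6.20 TPM were found in pillar trees 4, 7, 8 and 10. Standard trees 7, 8, 9 and 10 had 4.26, 5.60, 3.48 and 5.64 TPM. Pillar trees 4 and 8 were nearly level with each other at the top, and pillar tree 10 lay just above standard trees 8 and 10.

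The group means of Prupe.7G124200 were 8.69 ± 2.04 TPM (pillar) and 4.75 ± 1.06 TPM (standard), each with its SD over n = 4 trees, which makes the pillar mean 1.83 times the standard mean. The log2 difference was 0.80, and 0.73 within lane 6. On the log2 scale this was the smallest of the 3 differences and the one with the least spread within the groups, with a pooled SD of 0.32 against 0.62 for Prupe.1G291100 and 1.49 for Prupe.1G291800. The read counts were 96 to 154 for the pillar trees and 51 to 86 for the standard trees.

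For 2 of the 3 genes the growth habits were fully separated, namely Prupe.1G291100 (pillar lower) and Prupe.7G124200 (pillar higher). Such a separation was found for 2.93% of all tested genes, 1.93% with pillar lower and 1.0% with pillar higher. As the genes were chosen on this contrast, nothing can be read from that count. Pillar tree 4, which was the highest tree for so many genes, was the highest of the 8 trees for none of the 3. A lower level in bulk tissue can come from fewer cells of a type or from less RNA per cell, and these cannot be told apart here.

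**Figure D1:**
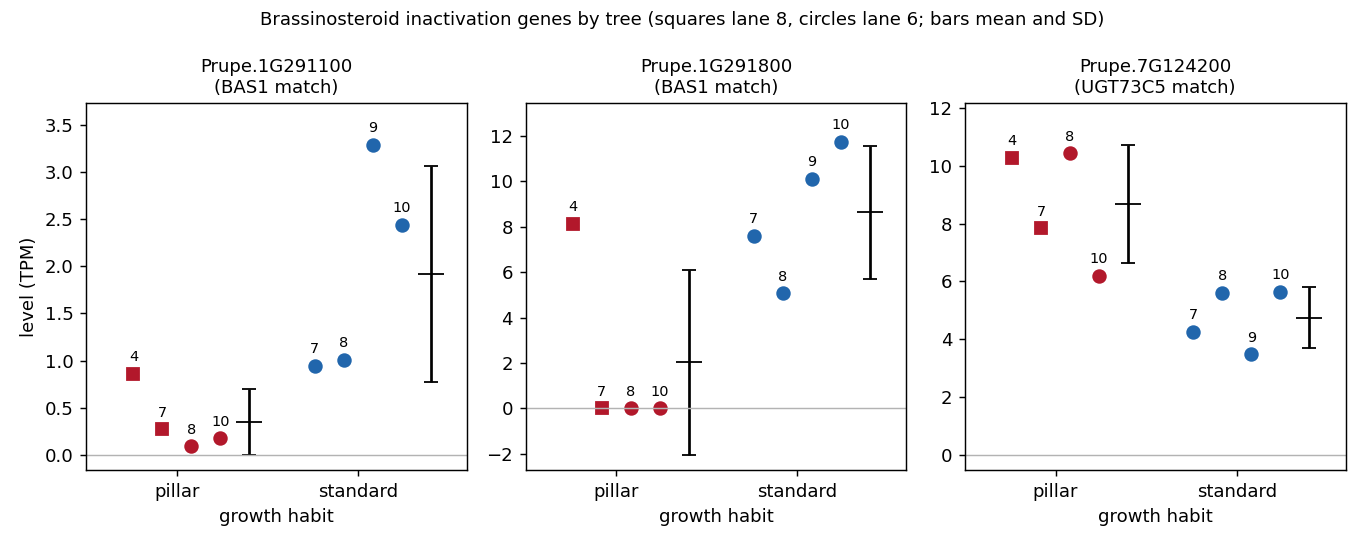
Level in TPM (vertical axis) of the 3 genes in each pillar (red) and standard (blue) tree, with the tree number above each point, squares for lane 8 and circles for lane 6, and the mean with its SD as a black bar (n = 4 each). Prupe.1G291800 is at 0 in pillar trees 7, 8 and 10 and at 8.12 TPM in pillar tree 4, while the other genes differ by degree.

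The order of the trees differed between the BAS1 genes once the growth habits were looked at singly. Standard tree 9 was the highest of its group for Prupe.1G291100 and standard tree 10 for Prupe.1G291800. TPM is scaled here to the whole gene region, 2360 bp for Prupe.1G291100 and 2334 bp for Prupe.1G291800. The ratio of both genes within a tree therefore also depends on the share of each region that is exon. Reads shared between similar copies could also change it, and neither was tested. Prupe.1G291800 stood at 9.46 times the level of Prupe.1G291100 in pillar tree 4 and at 8.04, 5.01, 3.08 and 4.81 times its level in standard trees 7, 8, 9 and 10. In pillar trees 7, 8 and 10 Prupe.1G291100 had 5, 2 and 4 reads and Prupe.1G291800 none. The exact 95% Poisson interval of 0 reads reaches to 3.69 reads. Those of 5, 2 and 4 reads begin at 1.62, 0.242 and 1.09 reads and overlap it, tree by tree. Such overlap is no test of a difference. By count Prupe.1G291100 was the higher gene in each of these trees, the reverse of pillar tree 4 and the standard trees. This order was not tested. For Prupe.7G124200 the order of the standard trees was another one, with standard trees 8 and 10 high and standard tree 9 the lowest.

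The BAS1 genes start 21.8 kb apart on Pp01, with 6 genes between them, none of which the study listed as changed. These neighbours were compared with the BAS1 genes. Of the 6 genes 3 reached the minimum mean of 0.5 TPM and were tested, none passed an adjusted p-value under 0.05 in limma or in limma voom, and without adjustment none was under 0.05 in either. Among all tested genes 0.12% passed the adjusted threshold, and 4.77% were under 0.05 without adjustment.

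Prupe.1G291200 (Pp01, 28961655 to 28964363), next to Prupe.1G291100, was measured well and had its highest levels in pillar trees. It had 5.59, 12.7, 10.0 and 6.62 TPM in pillar trees 4, 7, 8 and 10. The levels in standard trees 7, 8, 9 and 10 were 6.38, 7.35, 6.01 and 6.18 TPM. The growth habits overlapped, pillar trees 7 and 8 were the highest of the 8 trees, and pillar tree 4 was the lowest. The log2 difference was 0.34 (standard error 0.24, adjusted p = 0.902 from limma).

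Prupe.1G291500 (28973634 to 28976040) leaned in the direction of the BAS1 genes but stayed expressed in every tree. It had 6.64, 3.13, 3.06 and 2.01 TPM in pillar trees 4, 7, 8 and 10. Levels of 4.08, 4.73, 4.60 and 5.89 TPM were measured in standard trees 7, 8, 9 and 10. Pillar tree 4 was the highest and the other 3 pillar trees were the lowest of the 8 trees, so the groups overlapped, as they did for Prupe.1G291800, through pillar tree 4. The log2 difference was -0.44 (standard error 0.30, adjusted p = 0.902). By limma it was -0.73 without pillar tree 4 (adjusted p = 0.288) and -0.82 within lane 6 (adjusted p = 0.209). Over all alternatives it ran from -0.82 to -0.23.

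The short gene Prupe.1G291400 ranged from 1.54 to 3.86 TPM among pillar and from 0 to 4.08 TPM among standard trees (log2 difference 0.77, standard error 0.61, adjusted p = 0.902). Prupe.1G291300 was at 0 in 4 of the 8 trees and never above 0.843 TPM. Prupe.1G291600 and Prupe.1G291700, which directly precede Prupe.1G291800, were at 0 in all 8 trees. In the RefSeq annotation of the assembly Prunus_persica_NCBIv2 both fall within 1 gene, LOC18792878, which is classed as a pseudogene. The first gene after Prupe.1G291800, Prupe.1G291900, was also at 0 in all 8 trees and falls within the RefSeq pseudogene LOC109946609. By position, both BAS1 genes match protein-coding genes there. An aligner that places a read at several sites can share reads between similar copies, and whether that touched the BAS1 genes was not tested.

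Of the 5 genes on each side of the pair, 6 were tested, 3 were higher and 3 lower in pillar trees, and their log2 differences ran from -0.51 to 0.64. None had an adjusted or an unadjusted p-value under 0.05 in limma or in limma voom, and the growth habits overlapped for all 6. The median log2 difference of the 9 tested neighbours, between or beside the BAS1 genes, was 0.13, against -0.09 over all tested genes. Over the 8 trees, Pearson's r with Prupe.1G291800 was 0.87 for Prupe.1G291500 and -0.76 for Prupe.1G291200, so these neighbours ordered the trees in opposite ways.

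**Figure D2:**
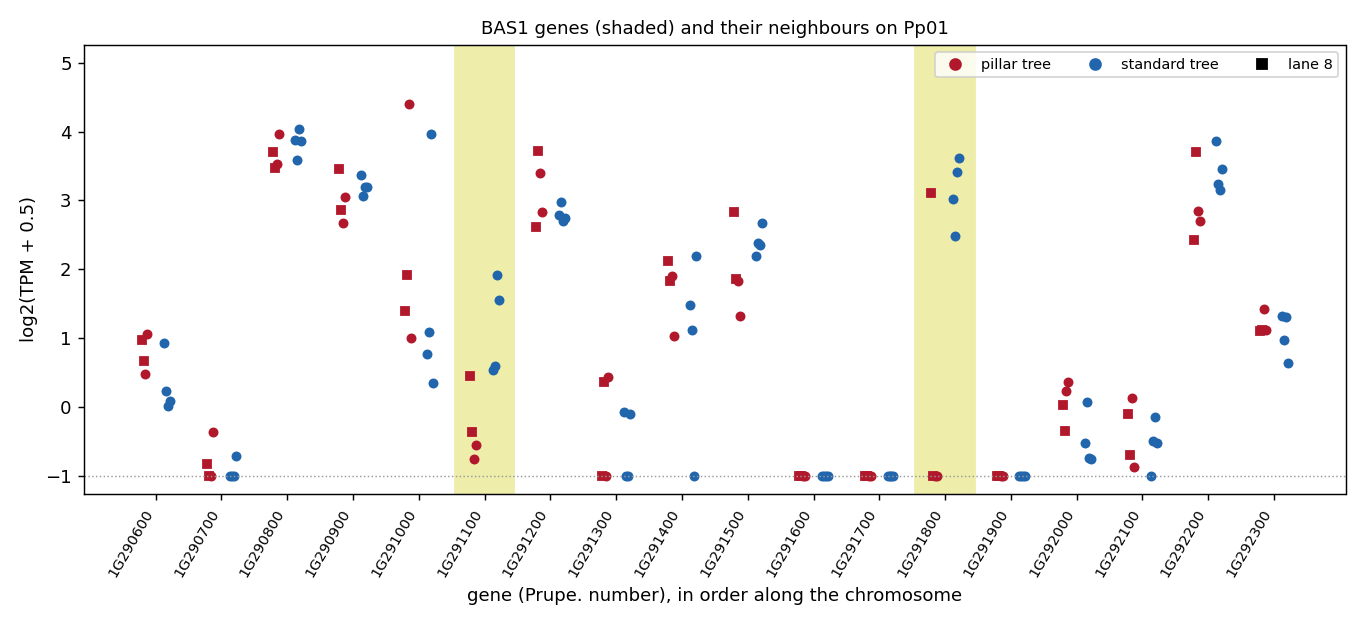
Level as log2(TPM + 0.5) (vertical axis) of the BAS1 genes (shaded), the 6 genes between them and 5 genes on each side, in chromosome order, with 1 point per tree in red (pillar) or blue (standard), squares for lane 8, and a dotted line at 0 TPM. The colours separate at Prupe.1G291100, 3 pillar trees drop to the dotted line at Prupe.1G291800, and the colours mix at the neighbours.

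Around Prupe.7G124200 on Pp07 some neighbours leaned the same way. The study's list matched 2 of them to glucosyltransferases: Prupe.7G124400 to UGT73C1, and Prupe.7G124100 to an Arabidopsis member of the same superfamily for which the list gives no symbol. All the genes from Prupe.7G124000 to Prupe.7G124700 lie on the reverse strand. Of the 10 nearest genes, 5 on each side, 9 were tested, with 4 higher means in pillar trees and 5 lower ones. After adjustment none was under 0.05 in limma or limma voom, and before it 1 was, in both.

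That gene was Prupe.7G124100 (14643595 to 14645070), the next gene downstream. It had 0.969, 1.23, 1.04 and 0.995 TPM in pillar trees 4, 7, 8 and 10. Standard trees 7, 8, 9 and 10 had 0.680, 0.539, 0.300 and 0.433 TPM. Every pillar tree lay above every standard tree (log2 difference 0.67, standard error 0.21, unadjusted p = 0.00994, adjusted p = 0.823 from limma), and the study had chosen this gene on the same trees. Its counts were low, 12 to 14 reads in pillar and 4 to 9 in standard trees.

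Prupe.7G124400 (14651629 to 14653089), the UGT73C1 match, varied more between trees than between growth habits. It had 17.6, 10.3, 7.84 and 3.81 TPM in pillar trees 4, 7, 8 and 10. The levels in standard trees 7, 8, 9 and 10 were 5.19, 4.205, 3.26 and 8.46 TPM. Pillar tree 10 lay within the range of the standard trees, and pillar tree 4 was the highest of all (log2 difference 0.74, standard error 0.43, adjusted p = 0.902).

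Prupe.7G124500, not in the study's list, averaged 0.913 ± 0.223 TPM (pillar) and 0.533 ± 0.199 TPM (standard; SD, n = 4 each; log2 difference 0.46, standard error 0.23, adjusted p = 0.902). Its groups overlapped, and an exact permutation test (two-sided) gave p = 0.0571, where 4 trees against 4 can give no value below 0.0286. Prupe.7G124300, between these genes, did not reach the minimum and had 1 to 7 reads per tree. Beyond Prupe.7G124500 and Prupe.7G124000 the log2 differences ran from -0.25 to 0.29. Pearson's r of log2(TPM + 0.5) with Prupe.7G124200 over the 8 trees was 0.79 for Prupe.7G124100, 0.77 for Prupe.7G124400 and 0.81 for Prupe.7G124500, and between -0.31 and 0.50 for the other tested neighbours. These points share the libraries and the contrast that chose the gene.

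**Figure D3:**
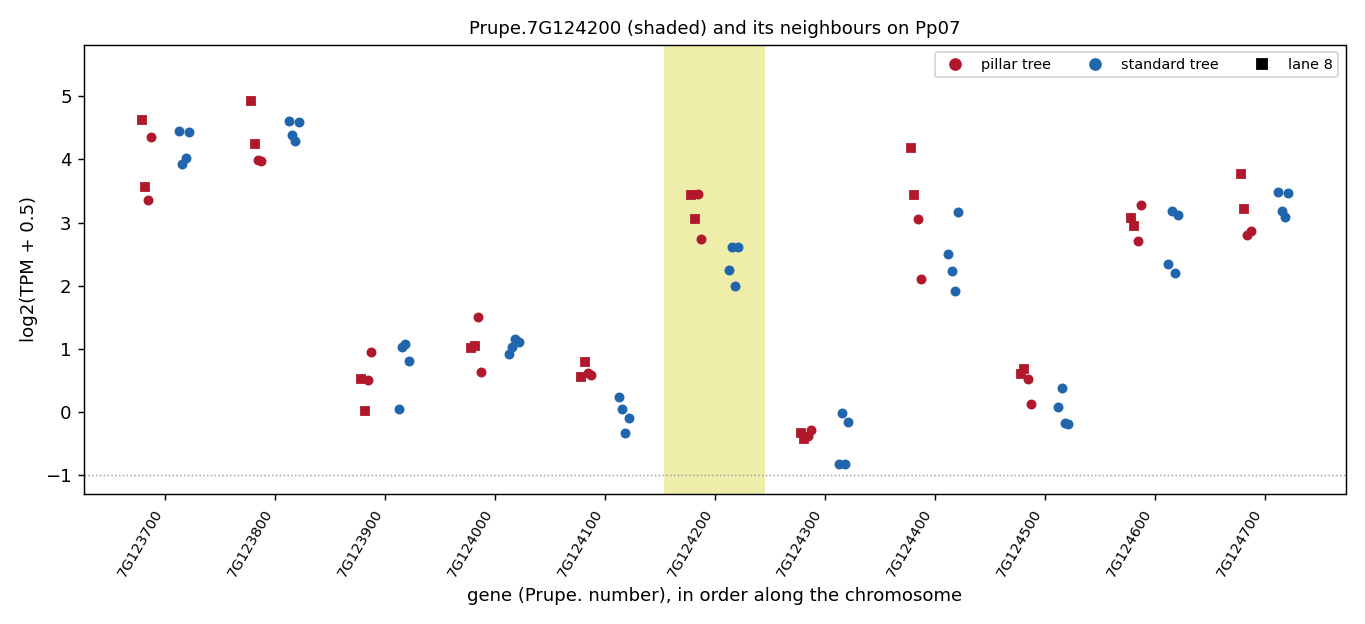
Level as log2(TPM + 0.5) (vertical axis) of Prupe.7G124200 (shaded) and 5 genes on each side, in chromosome order on Pp07, with 1 point per tree in red (pillar) or blue (standard), squares for lane 8, and a dotted line at 0 TPM. The colours separate at Prupe.7G124200 and at Prupe.7G124100 and overlap elsewhere.

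Enzymes of the same classes in the study's list mostly had higher means in pillar trees. The list holds 10 further cytochrome P450 genes outside the hormone categories, with 9 higher in pillar trees and 1 lower. Their median log2 difference was 0.58, in a range of -1.67 to 1.26. It holds 4 further glucosyltransferase genes, the neighbours Prupe.7G124100 and Prupe.7G124400 among them, of which 3 were higher and 1 lower, with a median of 0.70. By limma without adjustment, 5 of the P450 genes and 3 of the glucosyltransferase genes were under 0.05, and none passed after adjustment, against 4.77% and 0.12% of all tested genes. Of all tested genes 6153 had a higher and 13902 a lower mean log2 level in pillar trees. Over its whole list, however, the study reported more genes higher than lower in pillar trees. All tested genes are therefore an unlike background for the direction of listed genes. The listed genes were chosen on these trees, so the counts are no independent evidence of a direction. Both BAS1 genes went against the direction of most of the listed P450 genes.

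The genes whose pattern over the 8 trees was most like that of each member were found by Pearson's r of log2(TPM + 0.5) over all tested genes. The points share the libraries and the contrast, so r is a description of likeness. For Prupe.1G291800 the 3 most alike were Prupe.1G183800 (r = 0.99), Prupe.1G227200 (r = 0.98) and Prupe.1G231100 (r = 0.98). All lie on Pp01, on the same chromosome as the BAS1 genes but several megabases away, starting at 16437468, 24044097 and 24598200.

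Prupe.1G231100 came nearest to the on or off pattern of these 3. It had 4.32, 0.509, 0.647 and 0.411 TPM in pillar trees 4, 7, 8 and 10. Levels of 6.22, 5.91, 9.43 and 10.2 TPM were measured in standard trees 7, 8, 9 and 10. Pillar tree 4 was closer to the standard trees than to the other pillar trees, which were low, but lay below every standard tree. The groups therefore did not overlap, unlike those of Prupe.1G291800. Prupe.1G183800, matched to the ion channel gene CNGC19, had 11.9 to 14.5 TPM in pillar trees 7, 8 and 10 but 23.9 to 31.1 TPM in the other 5 trees. By position it lies within a RefSeq long noncoding RNA gene, but strands were not compared. Prupe.1G227200 had 12.4 to 14.1 TPM in the former and 28.3 to 43.0 TPM in the latter.

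Of the 10 genes most like Prupe.1G291800 (r of at least 0.977), 7 lie on Pp01, between 10.97 and 24.6 Mb, and all 7 are in the study's list. Among the 100 most alike, 40 lie on Pp01, which holds 22.4% of the tested genes. The fourth of them, Prupe.1G187500, matched to the acyl-activating enzyme AAE16, shared the zeros exactly. It reached 2.75 TPM in pillar tree 4 and 2.12 to 3.97 TPM in the standard trees, with no read elsewhere. Prupe.1G139800, the fifth in likeness, came close, with 13.1 TPM in pillar tree 4, 13.6 to 31.9 TPM among the standard trees and at most 1 read in any other tree. Of all tested genes, 2 had no read in pillar trees 7, 8 and 10 and at least 20 reads in each of the other 5 trees, and they were Prupe.1G187500 and Prupe.1G291800. This count, its limit of 20 reads and the counts by chromosome were chosen after the values were seen.

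For Prupe.1G291100 the 3 most alike were Prupe.1G222100 (r = 0.98), Prupe.8G156300 (r = 0.98) and Prupe.3G244800 (r = 0.97), on 3 chromosomes. In all 3 the growth habits overlapped, through pillar tree 4 alone, whereas those of Prupe.1G291100 did not. The 3 genes also differed far less. Their log2 differences between pillar and standard trees were -0.20, -0.23 and -0.20, against the -1.46 of Prupe.1G291100. None of the 3 is in the study's list. Among the 100 genes most like Prupe.1G291100, 32 lie on Pp01, against 22.4% of the tested genes. Prupe.1G328900, sixth in likeness (r = 0.96), was closer in size, with a log2 difference of -1.46. It is matched to REV3, a subunit of a DNA polymerase that copies past damage, and lies on Pp01.

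For Prupe.7G124200 the 3 most alike were Prupe.2G105400 (r = 0.99), Prupe.1G309700 (r = 0.97) and Prupe.8G075400 (r = 0.96). The first is matched to the glutamate receptor-like gene GLR1.4 and ranged from 6.21 to 8.73 TPM among pillar and from 4.63 to 5.94 TPM among standard trees, with no overlap. Prupe.1G309700 ranged from 43.5 to 85.5 TPM among pillar and from 29.3 to 48.7 TPM among standard trees, and its groups overlapped. None of the 3 lies on Pp07. Among the 100 genes most like Prupe.7G124200, 10 lie on Pp07, which holds 10.3% of the tested genes, and 32 are found on Pp02, where TAC1 lies and where 12.1% of the tested genes are.

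**Figure D4:**
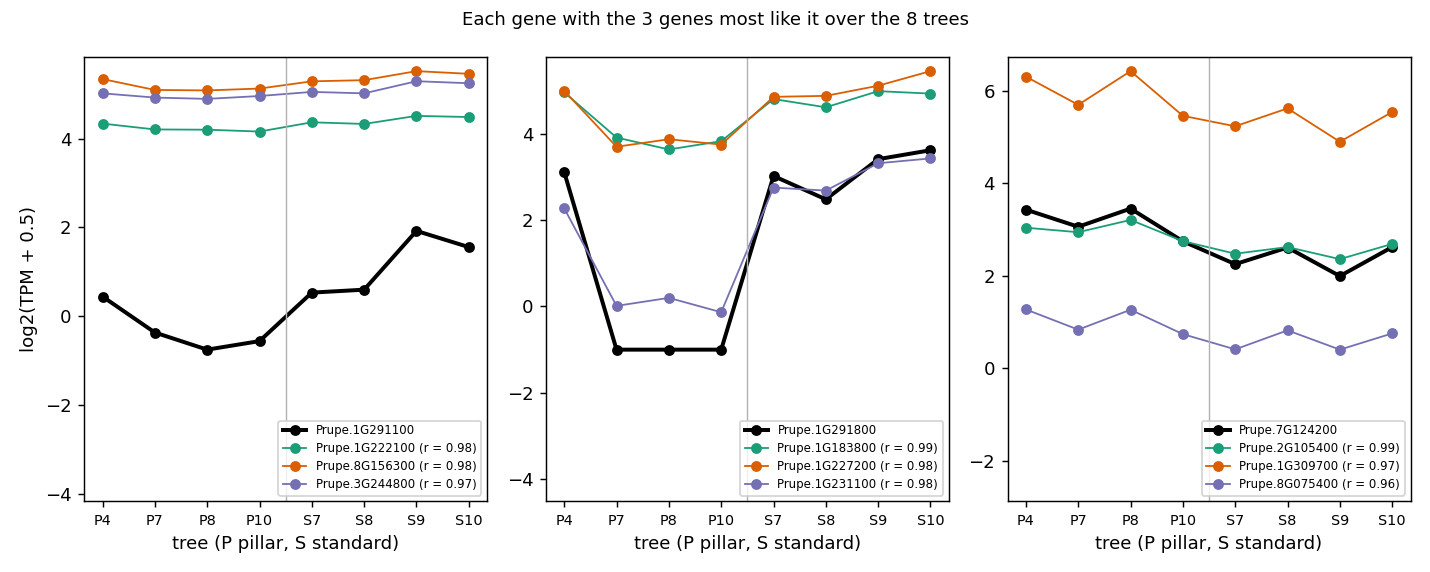
Level as log2(TPM + 0.5) (vertical axis) in pillar trees (P, left of the grey line) and standard trees (S, right) of each of the 3 genes (black) and the 3 tested genes with the highest Pearson's r to it over the 8 trees (colours). In the middle panel all 4 genes lie on Pp01 and are low in pillar trees 7, 8 and 10 but not in pillar tree 4.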

How the data were processed

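Using CLC Genomics Workbench, the authors trimmed the single 50-bp reads, mapped these on version 2 of the peach genome (up to 10 hits per read) and deposited TPM per gene and tree, scaled to whole gene regions. The deposited table also holds the authors' own fold changes and p-values, which were not used. Its 26873 second gene rows are 0 throughout and were left out. In each tree TPM times gene length was a whole multiple of the worth of 1 read (within 0.1 read for 100% of nonzero values under 1000 reads), which gave the reads per gene.

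For all 20055 genes averaging 0.5 TPM or more over the 8 trees, log2(TPM + 0.5) was compared between growth habits with limma 3.58.1 (R 4.3.3, eBayes with trend). P-values were adjusted over all these genes by Benjamini-Hochberg. The limma p-values set the difference between the growth habits against the spread between trees. Exact tests used scipy 1.17.1 in Python 3.11.15, and the comparison was tested on simulated data. RefSeq genes were matched by position without comparing strands. Of the tested genes on the 8 chromosomes, 94.4% had at least 50% of their region under 1 RefSeq gene. Named genes were the 3 genes, TAC1, the 5 nearest genes on each side, the genes between the BAS1 genes and the 3 most alike. Genes beyond these (4 to 10 in likeness and counts of them) were chosen after the values were seen. The members and lists were chosen with earlier results of these data known. A wider list of brassinosteroid genes and shoot tip markers was not used here, since gene names were at hand only from the study's list, and sequences were not used.

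Alternatives were pseudocounts of 0.1 and 1, no filter, upper-quartile scaling, limma voom on the recovered reads, each tree left out, the tree number as a block, and lane 6 alone.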

Additional observations from a re-analysis of the deposited data

Results flagged for a closer look

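Among the pillar trees, pillar tree 4 stood far from the rest for Prupe.1G291800, with 8.12 TPM against 0 TPM in pillar trees 7, 8 and 10. Its gap to the nearest of them made up the whole range of the group. Chance alone would mark about 1 in 20 groups of 4 trees by this measure if their values were normally spread. That rate does not apply here. With pillar trees 7, 8 and 10 tied at 0, the gap fills the range whatever the level of pillar tree 4. The gene was also chosen on these trees. The same tree had the highest level for 31.8% of all tested genes, and the part of that in the result for Prupe.1G291800 was not tested.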

How the results depend on the processing

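The direction of all 3 genes was kept under every alternative run. For Prupe.1G291100 and Prupe.7G124200 the groups did not overlap, so no choice of trees or pseudocount could reverse the direction. With most pillar trees at 0 TPM, leaving out a tree could not reverse that of Prupe.1G291800 either. The genes were also chosen on this contrast, so the kept direction is no further support. The log2 difference of Prupe.7G124200 stayed between 0.59 and 0.95. That of Prupe.1G291100 was -2.25 with a pseudocount of 0.1 and -2.56 in limma voom, and otherwise lay between -1.81 and -1.06. That of Prupe.1G291800 was -4.79 and -6.22 under the same settings, and otherwise lay between -4.13 and -2.41. With each tree left out it ran from -4.13 to -2.76, that of Prupe.1G291100 from -1.71 to -1.20 and that of Prupe.7G124200 from 0.68 to 0.95. No neighbour on Pp01 or Pp07 passed an adjusted p-value under 0.05 in any setting. The number of all tested genes that did was 24, from 17 to 85 with each tree left out (85 without standard tree 8).

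Tree numbers 7, 8 and 10 occur in both growth habits but name different trees. Deviations of same-numbered trees correlated at 0.29, 0.10 and -0.09, within the range of -0.41 to 0.32 for differently numbered trees. No pairing by number was seen, though so few values cannot exclude it. With the tree number as a replicate block over these 6 trees, 5 genes were under 0.05, against 27 for the same trees without the block (added after seeing the data), and the log2 differences were -1.45, -4.04 and 0.59 for Prupe.1G291100, Prupe.1G291800 and Prupe.7G124200. Prupe.1G291400 changed sign, to -0.0113, in these trees with or without the block. Depth limits the pillar values of both BAS1 genes, with 2 to 17 reads per pillar tree for Prupe.1G291100 and 0 reads in 3 pillar trees for Prupe.1G291800. A log2 scale with a pseudocount understates changes at low TPM, and a larger pseudocount does so more. With a pseudocount of 1 the differences were -1.06 for Prupe.1G291100 and -2.41 for Prupe.1G291800. The part of this in the limma voom values was not tested. The alternatives for the brassinosteroid pathway list were not run, because that list was not matched to genes here.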
